A study of Homo sapiens with 4 samples.

Results

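The collagen genes of Daoy cells, a cell line established from a human medulloblastoma, were examined as one family, with COL2A1, the type II collagen gene of cartilage, first. Members were all genes whose symbol follows the collagen chain pattern (COL, a type number, A and a chain number) and that had at least 1 transcript annotated as protein coding. The rule itself used no measured value, but members, classes and gene lists were chosen with earlier results of these data known. The rule found 44 of the 58174 genes in the data, with 347 of the 199324 listed transcripts. By class, 11 were fibrillar chains, 6 were type IV chains of basement membranes and 27 belonged to other types. The groups were 2 wild type and 2 EED-knockout RNA-seq libraries of total RNA, all from this 1 cell line. EED belongs to Polycomb repressive complex 2, or PRC2, an enzyme complex that methylates histone H3 at lysine 27 in silenced chromatin. The way EED was knocked out, the part of the gene it touches and the number of clones were not given in the sources used here. As nothing in the labels tells whether libraries came from separate cultures, p-values measure only how these 4 libraries vary, and that variation may be technical.

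A collagen is a trimer of chains wound into a triple helix, and each chain is the product of its own gene. Fibrillar collagens build the fibrils that give tissues tensile strength, type IV forms the sheet of basement membranes, and the remaining types decorate fibrils, anchor cells or form networks and microfibrils. Chains are hydroxylated and folded in the endoplasmic reticulum, trimmed and crosslinked outside the cell, and read by integrin and discoidin domain receptors. In the brain most collagen lies in the meninges and in vessel walls, and type II collagen belongs to cartilage, the vitreous and the embryonic notochord.

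Estimated counts, which are RNA fragments assigned to a gene by kallisto, were scaled to library size (CPM) for comparisons between libraries. TPM, which also corrects for transcript length, served for comparisons between genes. The libraries held 17835875 to 19106118 counts, so that 3 counts, taken as the floor of detection, stood for 0.158 to 0.166 CPM. EED had 34.4 and 27.6 CPM in the wild type libraries and 17.9 and 26.1 CPM in the knockout libraries (log2 fold change -0.49, edgeR adjusted p = 0.878). Since the changed part of EED is not known here, its count does not check the label. ATOH1, a defining gene of granule neuron precursors, had no count in any library, while ZIC1, another gene of that lineage, had 19.6 to 31.8 CPM. Of 3 immune markers, CD3E, a T cell gene, also had no count, PTPRC reached at most 0.526 CPM and CD68 had 22.0 to 40.1 CPM. In bulk RNA, fewer cells of a type and less RNA per cell cannot be told apart.

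COL2A1 was close to absent from the wild type libraries and present in both knockout libraries. This gene lies on chromosome 12 (GRCh38, 47972965 to 48004554, minus strand). It had 3 counts in wild type 1, 4 in wild type 2, 110 in knockout 1 and 47 in knockout 2. On the scaled level these were 0.165, 0.221, 5.78 and 2.51 CPM, or 0.193 ± 0.0396 CPM (SD, n = 2) in wild type and 4.14 ± 2.32 CPM (SD, n = 2) in knockout. The wild type libraries sat near the floor, both knockout libraries were above them, and knockout 1 was 2.31-fold higher than knockout 2. Pooled over libraries, the ratio of knockout to wild type was 21.6, with an exact interval of 10.2 to 54.5 that covers counting error only. The log2 fold change was 4.38 ± 0.67 (SE), with a 95% interval of 2.79 to 5.97 (unadjusted p = 0.000336). After adjustment over all 18349 tested genes by edgeR's quasi-likelihood test, p was 0.489, and edgeR called none of them (0%). DESeq2 called COL2A1 (adjusted p = 0.000656, against 0.116 to 1.00 under the other alternatives), as it did 0.184% of genes as higher and 0.230% as lower. It was the only collagen gene called by DESeq2.

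Nearly all COL2A1 counts of the knockout libraries lay on a coding transcript that holds exon 2. This exon encodes the cysteine-rich domain of the N-terminal propeptide. Background knowledge has it in the IIA transcript of cartilage precursors and skipped in the IIB transcript of mature chondrocytes. In the GENCODE 29 annotation it spans chr12:47999919-48000125 on the minus strand, with 207 bases that make 69 whole codons. It is printed here because it distinguishes the 2 main coding forms of the gene, and capitals mark the 10 in-frame cysteine codons (TGT or TGC).
COL2A1 exon 2: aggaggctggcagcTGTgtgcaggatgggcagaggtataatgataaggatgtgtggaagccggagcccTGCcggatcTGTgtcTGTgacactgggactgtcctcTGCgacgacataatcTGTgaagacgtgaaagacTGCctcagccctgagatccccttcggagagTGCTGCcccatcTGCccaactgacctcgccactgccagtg

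COL2A1-001, the coding transcript that holds this exon, has 54 exons and 5071 bases. It had 0 estimated counts in both wild type libraries, 107.6 in knockout 1 and 42.4 in knockout 2, or 5.65 and 2.26 CPM in the knockout libraries. Its mean knockout level of 3.96 CPM was 24.0-fold the mean wild type floor of 0.165 CPM, set at 3 counts per library. That ratio takes in neither the spread between the knockout libraries nor their counting error. The transcript fit gave an unadjusted p of 0.00349 and an edgeR adjusted p of 0.823. COL2A1-008, the coding transcript without exon 2, had 0 counts in all 4 libraries. Its deposited version differs from that in GENCODE 29, so its exons were read from the GENCODE 29 version. The wild type counts lay on non-coding models, with 0.854 and 2.85 estimated counts on the retained-intron transcript COL2A1-009, 1.15 and 1.15 on COL2A1-007, and 1 in wild type 1 on COL2A1-002, a non-coding transcript that holds exon 2. COL2A1-009 also had 2.40 counts in knockout 1. Summed over whole transcripts, those that hold exon 2 had 1 and 0 counts in wild type against 107.6 and 45.0 in knockout. The others had 2 and 4 against 2.40 and 2. Fragments on exon 2 itself were not counted. COL2A1-008, with 4257 bases, also differs from COL2A1-001 in length outside the 207 bases of this exon, so use of the exon was not tested. Coding transcripts held 97.8% of the COL2A1 counts in knockout 1 and 90.2% in knockout 2, against none in wild type. Kallisto divides fragments between overlapping transcripts by a model, so the division within the gene is an estimate.

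**Figure D1:**
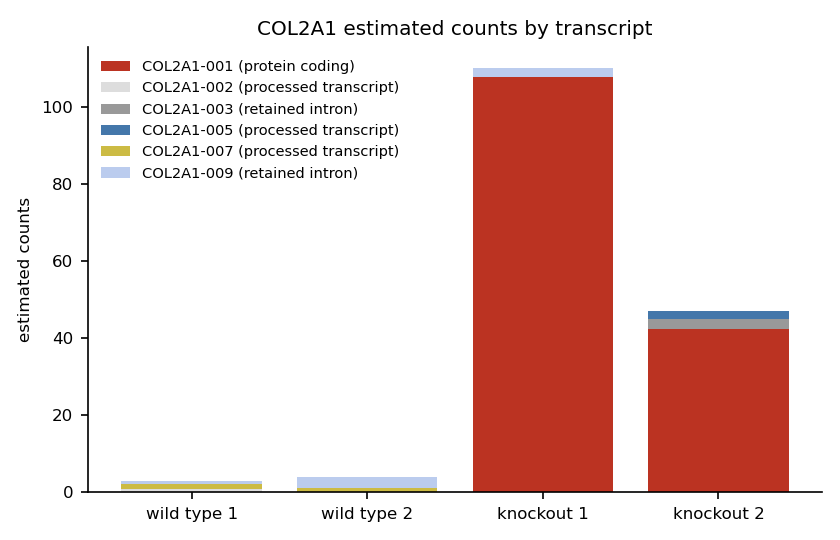
Estimated counts of COL2A1 in each library, stacked by transcript, with the 2 wild type and the 2 EED-knockout libraries on the horizontal axis. The knockout bars consist almost wholly of COL2A1-001 (107.6 and 42.4 counts), which is at 0 in wild type.

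COL2A1 differed less on the length-corrected scale than in counts. Its TPM values were 0.267 and 0.449 in wild type against 1.84 and 1.52 in knockout. The groups did not overlap on either scale. On log2(TPM + 0.1) the difference was 1.98 (limma-trend adjusted p = 0.823), on log2(TPM + 1) it was 0.98, and with length-scaled counts it was 2.12. Counting coding transcripts alone gave 9.19, where wild type is at 0 and the fitted value rests on the prior count. The gene's TPM takes in short non-coding transcripts with few counts. In knockout 2, COL2A1-003 and COL2A1-005 held 0.440 and 0.508 TPM from 2.60 and 2 counts. COL2A1-009 held 0.119 and 0.427 TPM in wild type from 0.854 and 2.85 counts, and 0.367 TPM in knockout 1. On COL2A1-001 alone, TPM was 0 and 0 in wild type against 1.47 and 0.574 in knockout.

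Other cartilage genes were set beside COL2A1. Of 5 chondrocyte markers the summed level was 47.7 and 50.2 CPM in wild type and 75.1 and 42.3 CPM in knockout. Most of that sum was SOX9, the main activator of COL2A1 in cartilage, at 45.5 and 44.1 CPM in wild type and 66.0 and 36.3 CPM in knockout. The SOX9 level was highest in knockout 1 and lowest in knockout 2, so the genotypes overlapped. ACAN, the large proteoglycan of cartilage, had 0 counts in both wild type libraries, 11 in knockout 1 and 2 in knockout 2. Among 14 listed cartilage matrix and regulator genes, 8 passed the filter on low counts. No one of the 8 had an unadjusted p under 0.05, 2 (25.0%) were higher in both knockout libraries than in both wild type libraries, and 1 (12.5%) was lower in both. Over all tested genes these shares were 17.8% and 18.0%. SOX5, a partner of SOX9, had 1.98 and 1.66 CPM in wild type and 0.946 and 1.01 CPM in knockout, and was thus the one below. MATN3, a cartilage matrix adaptor, had 1.87 and 4.58 CPM against 7.20 and 4.75 CPM. CNMD, the cartilage protein chondromodulin, had 0.220 and 0.828 CPM against 1.16 and 0.906 CPM. Both lay above wild type in both knockout libraries, at low counts. HAPLN1, a link protein of cartilage matrix, had 2 and 12 counts in wild type against 3 and 5 in knockout. Of the other genes too low to test, PRG4, which codes for lubricin, had 7 and 12 against 1 and 8, and EPYC, a small proteoglycan, had 0 and 3 against 0 and 0. COMP, an adaptor between fibrils, had 1 and 0 against 7 and 1, and CHAD, a leucine-rich matrix protein, had 10 and 3 against 20 and 0. The part of these cells' cartilage genes in the COL2A1 difference was not tested.

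Levels per length spread widely over the family. COL6A2 stood first, with 743 and 760 TPM in wild type and 922 and 404 TPM in knockout. COL1A1 followed at 380 and 724 TPM in wild type and 727 and 724 TPM in knockout, and COL6A1 came after it with 595, 664, 705 and 356 TPM in the same order of libraries. These 3 genes overlapped in their ranges, so that their order is not beyond the spread between libraries. COL6A3 (mean 363 TPM) and COL1A2 (184 TPM) came next, followed by COL4A2 (143 TPM), COL5A1 (141 TPM) and COL7A1 (136 TPM), which lay close together. COL2A1 ranked 28 of 44 at a mean of 1.02 TPM. COL11A1 and COL6A5 had a single count in knockout 1 and were last. Collagen genes held 1.03% and 1.28% of all counts in wild type, against 1.41% and 1.12% in knockout.

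**Figure D2:**
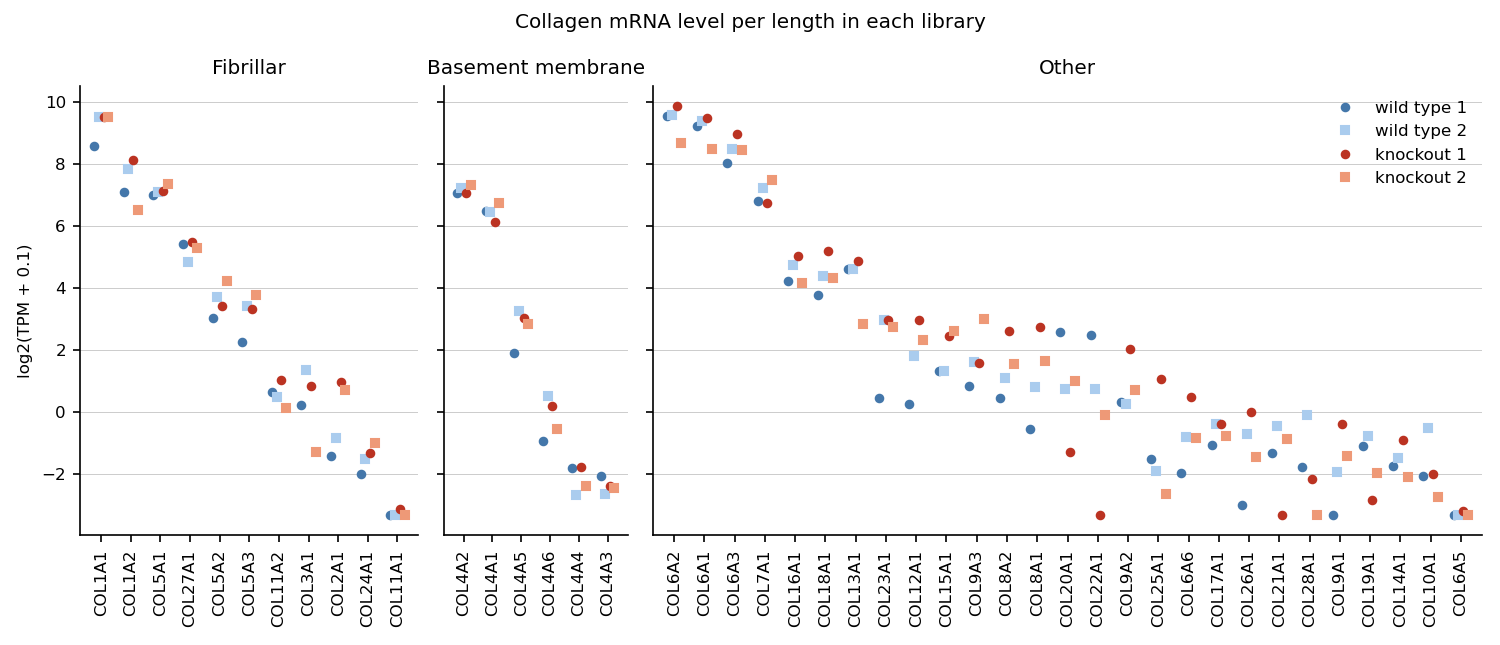
Level of each of the 44 collagen genes in every library as log2(TPM + 0.1), with genes on one axis grouped by class and 1 point per library. COL6A1, COL6A2, COL6A3, the type I chains, COL4A2, COL5A1 and COL7A1 stand highest, and COL2A1 sits in the lower part of the fibrillar class.

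Of the 44 genes, 34 passed the filter on low counts and entered the test, which as a whole called no gene (0% of 18349 adjusted by edgeR). The 10 that did not enter were COL11A1, COL4A3, COL9A1, COL19A1, COL21A1, COL6A5, COL10A1, COL25A1, COL26A1 and COL28A1. Among the 34, 5 (14.7%) had an unadjusted p under 0.05 with a higher level in knockout, beside 2.85% of all tested genes. They were COL2A1, COL15A1, COL8A2, COL12A1 and COL9A2. In the lower direction there was 1 (2.94%), COL20A1, beside 3.05% of all tested genes. In CPM, each knockout library exceeded each wild type library in 10 genes (29.4%), where 17.8% of all genes did so. In 2 genes (5.88%) both lay below, where 18.0% did. The median log2 fold change was 0.12 over the 34 collagen genes and 0.0074 over all tested genes. The count of 5 moved when single libraries were left out, to 2 without wild type 1, 13 without wild type 2 and 8 without knockout 2. The count of 1 moved to 9 without knockout 1, 0 without wild type 1 and 2 without either wild type 2 or knockout 2.

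**Figure D3:**
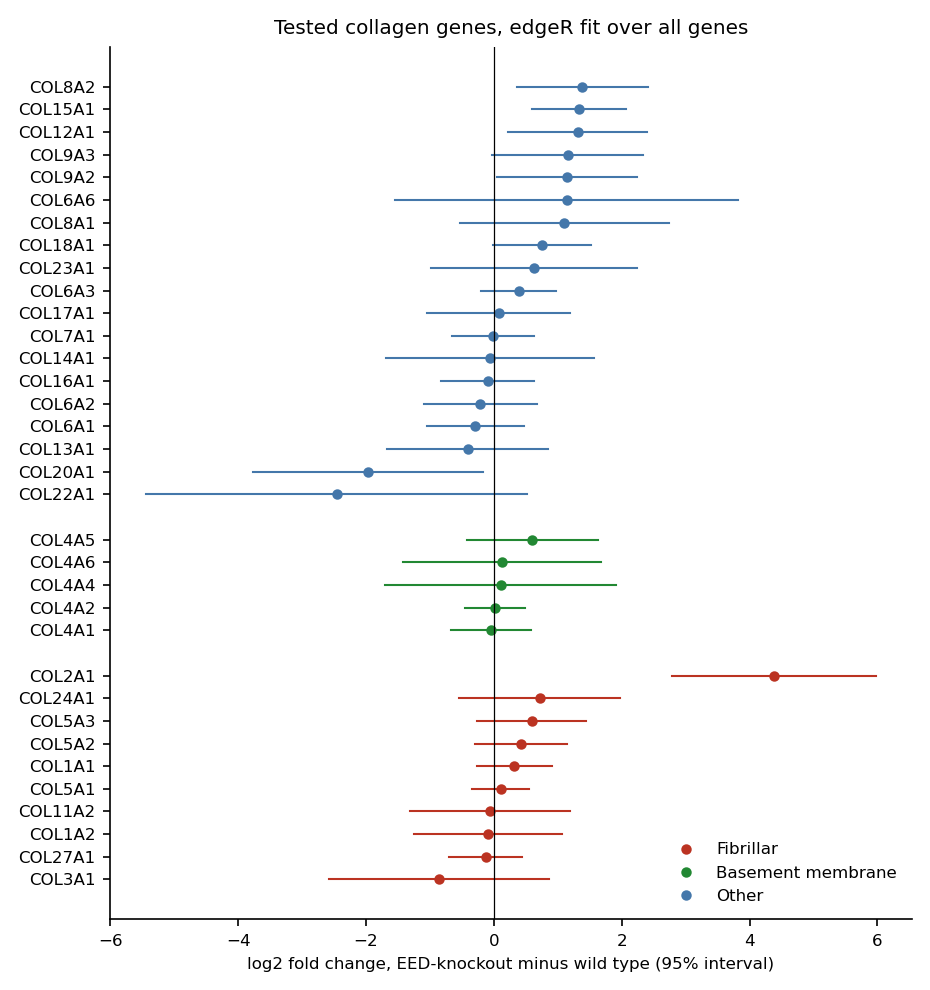
Log2 fold change, knockout over wild type, of the 34 tested collagen genes with 95% confidence intervals from edgeR, grouped by class. COL2A1 stands farthest to the right at 4.38, COL15A1, COL8A2, COL12A1 and COL9A2 have intervals above 0, and COL20A1 has one below 0.

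Among the fibrillar chains the abundant genes differed little between genotypes. In this class, 10 of 11 were tested, 6 had a log2 fold change above 0 and 4 below, and the median was 0.21. COL1A1, the main chain of type I collagen in bone, skin and tendon, had 1920 and 2834 CPM in wild type and 2905 and 3020 CPM in knockout. Both knockout libraries were higher, but wild type 2 was close to knockout 1 and the fold change of 0.32 ± 0.25 on the log2 scale had an unadjusted p of 0.241. COL1A2, the partner chain, had 473 and 730 CPM in wild type and 848 and 279 CPM in knockout, so the knockout libraries held both the highest and the lowest value.

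Among the minor fibrillar chains, COL5A1 and COL24A1 did not overlap between genotypes and the others did. COL5A1, which starts fibrils together with type I collagen, was the steadiest member, with 692, 704, 726 and 779 CPM (wild type 1, wild type 2, knockout 1, knockout 2). Both knockout libraries were above, but its log2 difference of 0.11 had a 95% interval of -0.33 to 0.55. COL5A2, its partner, had 42.6 and 59.2 CPM in wild type and 50.2 and 86.2 CPM in knockout, and COL5A3, another type V chain, had 24.1 and 50.4 against 46.9 and 65.3 CPM. Both overlapped between genotypes. COL24A1, an ancient fibrillar type expressed in bone and cornea, had 0.769 and 1.16 CPM in wild type and 1.37 and 1.81 CPM in knockout, with no overlap but an unadjusted p of 0.220. COL3A1, the reticular fibril chain of vessels and skin, had 3.73 and 8.11 CPM against 5.41 and 1.12 CPM. COL27A1, a fibrillar type of developing cartilage, had 170 and 110 against 132 and 124 CPM, with both knockout values inside the wild type range. COL11A2, a cartilage fibril chain, had 5.22 and 5.74 CPM in wild type and 7.88 and 2.61 CPM in knockout. COL11A1, its partner chain, had 1 count in all, in knockout 1.

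Type IV chains, which build the basement membrane, gave no tested member past an unadjusted p of 0.05 and none with the genotypes apart. Over all tested genes, 2.85% passed that p as higher and 3.05% as lower. The genotypes were apart in 17.8% as higher and in 18.0% as lower, and so few type IV genes cannot be told from these shares. Of the 6 type IV genes, 5 were tested, 4 with a log2 fold change above 0. COL4A1 had 462 and 402 CPM in wild type and 323 and 516 CPM in knockout (log2 fold change -0.043 ± 0.26). COL4A2 had 644 and 639 CPM in wild type and 593 and 704 CPM in knockout (0.016 ± 0.20). In both genes knockout 1 was lowest and knockout 2 highest. The pair is transcribed in opposite directions from 1 shared stretch on chromosome 13. To show it, the 126 bases between the RefSeq starts are printed on the COL4A1 strand (GRCh38.p14, chr13:110307158-110307283, minus strand). Capitals mark a CCAAT motif and a GGGCGG motif, each found once, on either strand. In GENCODE 29 the 2 gene bodies overlap here through further transcripts.
COL4A1 to COL4A2: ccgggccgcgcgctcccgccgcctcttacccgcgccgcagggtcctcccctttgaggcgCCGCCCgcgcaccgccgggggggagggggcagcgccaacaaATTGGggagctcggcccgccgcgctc

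The remaining type IV genes were low. COL4A5, a chain of kidney and other specialised membranes, had 5.71 and 14.3 CPM in wild type and 16.8 and 13.5 CPM in knockout. COL4A6, its neighbour gene and partner, had 1.26 and 5.19 against 4.20 and 2.88 CPM, and COL4A4 had 1.43 and 0.386 against 1.31 and 0.640 CPM. Wild type 1 and wild type 2 differed as widely in these 3 genes as the genotypes did. COL4A3, too low to test, had 0.275 and 0.331 CPM in wild type and 0.526 and 0.480 CPM in knockout, apart but near the floor.

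Fibril-associated collagens, which have interrupted helices and sit on the surface of fibrils, held both higher and lower members. Of 10 genes, 7 were tested, with 3 above and 4 below 0 and a median log2 fold change of -0.059. COL12A1, found on fibrils of tendon and ligament, had 6.10 and 17.7 CPM in wild type and 30.3 and 28.6 CPM in knockout. Its log2 fold change was 1.31 ± 0.46 (unadjusted p = 0.0244, edgeR adjusted p = 0.808). The knockout libraries were nearly equal, while the wild type libraries differed by more than the gap to knockout 2. COL9A2, a chain of the type IX collagen that coats type II fibrils in cartilage, had 1.65 and 1.66 CPM in wild type and 4.62 and 2.72 CPM in knockout (1.15 ± 0.46, unadjusted p = 0.0417, edgeR adjusted p = 0.831). COL9A3, another type IX chain, had 1.48 and 2.48 against 3.10 and 5.76 CPM and an unadjusted p of 0.0532. Exons of COL9A3 overlap those of TCFL5 on the opposite strand (mean 22.2 CPM), so part of its count is uncertain: strand marking was not given in the sources used here.

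Type IX collagen has a further chain, COL9A1, which was too low to test. It had 0 and 2 counts in the wild type libraries, against 16 and 9 in knockout, a pooled ratio of 12.02 with an exact counting interval of 3.0 to 105. In CPM, all 3 type IX chains were thus higher in both knockout libraries than in either wild type library, as were 17.8% of all tested genes. COL9A1 had only 25 counts over the 2 knockout libraries. In TPM, COL9A3 overlapped between genotypes, with 2.97 in wild type 2 and 2.87 in knockout 1. COL9A1 has 2 starts, which background knowledge links to a long form of cartilage and a short form of the eye. The transcript from the downstream start, COL9A1-002, had 0, 1.19, 14.2 and 6.74 estimated counts (wild type 1, wild type 2, knockout 1, knockout 2) and held 81.8% of the gene's counts. The transcript from the upstream start, COL9A1-001, was at 0 in all 4 libraries. The 250 bases before each RefSeq start (GRCh38.p14, minus strand) are printed to show the 2 promoters that the counts tell apart. The downstream one is chr6:70283198-70283447 and the upstream one chr6:70303085-70303334. The search on both strands was for TATAA, as in a core promoter box. It also took in CCAAT, the site of the factor NF-Y. The last of the motifs was GGGCGG, known as a GC box. Capitals mark the matches: the downstream stretch holds 1 CCAAT and the upstream stretch 1 TATAA.
COL9A1 downstream start: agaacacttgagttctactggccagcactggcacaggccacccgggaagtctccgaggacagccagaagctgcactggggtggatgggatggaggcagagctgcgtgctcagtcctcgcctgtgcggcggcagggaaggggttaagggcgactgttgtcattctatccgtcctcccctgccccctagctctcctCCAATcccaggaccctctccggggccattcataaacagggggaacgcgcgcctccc
COL9A1 upstream start: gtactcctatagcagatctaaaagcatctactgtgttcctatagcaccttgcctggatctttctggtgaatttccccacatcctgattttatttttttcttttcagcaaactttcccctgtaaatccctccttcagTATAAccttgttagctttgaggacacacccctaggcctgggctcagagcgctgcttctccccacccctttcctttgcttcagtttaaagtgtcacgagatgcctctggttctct

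The RefSeq promoter table (GRCh38.p14, 250 bases before to 50 after each start) covered 32 of the 44 genes with 44 windows, and 12 genes including COL2A1, COL1A1 and COL1A2 had none. TATAA occurred in 20.5% of the collagen windows and 20.4% of all 35116 windows, CCAAT in 31.8% and 34.6%, and GGGCGG in 54.5% and 45.0%. The median GC content was 63.7% in collagen windows and 58.7% in all windows. These are descriptions of letters in a window and say nothing of factor binding.

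In CPM, COL20A1 and COL22A1 were the tested members below wild type in both knockout libraries. COL20A1, a fibril-associated type with little known function, had 9.34 and 5.30 CPM in wild type and 0.526 and 3.20 CPM in knockout. The log2 fold change was -1.97 ± 0.76 (unadjusted p = 0.0359, edgeR adjusted p = 0.808). In TPM, COL20A1 overlapped between genotypes, with 1.57 in wild type 2 and 1.90 in knockout 2. COL22A1, a type of tissue junctions such as muscle and tendon, had 133 and 43 counts in the wild type libraries, against 0 and 33 in knockout. Its p was 0.0925 unadjusted, and wild type 1 stood far above the other libraries. COL16A1, which joins cells to matrix in skin and cartilage, was the most abundant of the subclass, with 48.8 and 64.5 CPM in wild type and 68.1 and 37.7 CPM in knockout. COL14A1, found on mature fibrils, had 0.494 and 0.828 against 0.841 and 0.427 CPM. COL19A1, a type of developing muscle and neurons that was too low to test, had 8 and 13 counts in wild type against 3 and 4 in knockout, lower in both. Its exons overlap those of LMBRD1 on the opposite strand (mean 16.3 CPM). COL21A1, also untested, had 4 and 8 counts against 0 and 7.

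The multiplexins, basement membrane collagens whose ends can be cut off as endostatin-like fragments, lay above wild type in CPM in both members. Of all tested genes, 17.8% lay above wild type in both knockout libraries. COL15A1 had 8.68 and 5.68 CPM in wild type and 20.0 and 16.3 CPM in knockout. Its log2 fold change of 1.33 ± 0.31 had a 95% interval of 0.60 to 2.07 (unadjusted p = 0.00354, edgeR adjusted p = 0.761, DESeq2 adjusted p = 0.0685). COL18A1, the source of endostatin, had 53.1 and 77.8 CPM in wild type and 142 and 78.6 CPM in knockout. Knockout 2 lay next to wild type 2, and knockout 1 stood far above the rest. In TPM, COL18A1 overlapped between genotypes, with 20.7 in wild type 2 and 19.6 in knockout 2. Its log2 fold change of 0.75 had an unadjusted p of 0.0540. Exons of COL18A1 overlap those of SLC19A1 on the opposite strand (mean 29.6 CPM). COL18A1-002, from the upstream start, held 89.5% of the gene's counts, with 856 and 1174 estimated counts in wild type, against 2495 and 1341 in knockout. The longer transcripts from the downstream start, COL18A1-001 and COL18A1-201, had at most 13.5 counts in any library.

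Vessel wall cells make both multiplexins, so 4 endothelial markers were read beside them. Their summed level was 13.2 and 16.2 CPM in wild type, 112 in knockout 1 and 1.12 in knockout 2, and 93.6 CPM of the sum in knockout 1 was KDR, a growth factor receptor gene. PECAM1 and CDH5, the defining genes, reached at most 3.75 CPM in any library. TEK, the remaining marker, had 10.6 and 11.3 CPM in wild type, 15.03 CPM in knockout 1 and 0.0533 CPM in knockout 2. It made up most of the sum in both wild type libraries. COL15A1, COL18A1 and the endothelial sum were all highest in knockout 1. In knockout 2, where the sum was lowest, COL15A1 was at 16.3 CPM and COL18A1 at 78.6 CPM. The part of the endothelial genes in these results was not tested.

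Network-forming collagens are short chains that build hexagonal lattices. COL8A2, a chain of the corneal Descemet membrane, had 4.61 and 7.12 CPM in wild type and 20.8 and 9.86 CPM in knockout (log2 fold change 1.39 ± 0.43, unadjusted p = 0.0147, edgeR adjusted p = 0.799). COL8A1, its partner chain in vessel walls and cornea, had 0.879 and 4.14 CPM against 6.73 and 4.05 CPM, so the genotypes overlapped. COL10A1, made by hypertrophic chondrocytes, was not tested, with 6 and 9 counts in wild type against 6 and 2 in knockout. Scaled to library size, its knockout values of 0.315 and 0.107 CPM were below the wild type values of 0.330 and 0.497 CPM.

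Type VI collagen forms beaded microfilaments around cells, and its 3 main genes carried 88.0% of the counts of the class outside fibrils and basement membrane. COL6A1 had 1996 and 2098 CPM in wild type and 2211 and 1135 CPM in knockout. COL6A2 had 1800 and 1752 CPM in wild type and 2144 and 922 CPM in knockout. COL6A3, which is the longest chain, had 1903 and 2337 CPM in wild type and 3247 and 2306 CPM in knockout. In all 3 genes knockout 1 was the highest library, while knockout 2 was the lowest for COL6A1 and COL6A2. COL6A6, a chain that can take the place of COL6A3, had 0.659 and 3.09 CPM against 7.73 and 0.533 CPM, a 14.5-fold difference within the knockout pair. COL6A5 had a single count.

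COL7A1, whose product anchors the epidermis to the dermis, had 511 and 621 CPM in wild type and 427 and 694 CPM in knockout, on either side of both wild type libraries. Of the transmembrane collagens, COL13A1, found at neuromuscular junctions, had 32.2 and 30.0 CPM in wild type and 36.9 and 9.81 CPM in knockout. COL23A1, a cell surface type, had 2.86 and 16.7 CPM against 15.9 and 14.3 CPM, with wild type 1 apart from the other 3 libraries. COL17A1, the hemidesmosome collagen of skin, had 1.70 and 2.76 against 2.68 and 2.03 CPM. COL25A1, a collagen of neurons that binds amyloid, had 0.107 to 2.36 CPM, and both extremes were knockout libraries. COL26A1 had 1 and 5 counts in the wild type libraries, against 30 and 8 in knockout (pooled ratio 6.09, counting interval 2.55 to 17.6). COL28A1 had 4 and 14 counts in wild type against 3 and 0 in knockout, lower in both. None of these last 3 genes was tested.

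Summed over classes, the genotypes overlapped throughout. The fibrillar class had 3331 and 4502 CPM in wild type and 4729 and 4362 CPM in knockout, of which COL1A1 made 63.1%. The basement membrane class had 1114 and 1062 CPM against 939 and 1238 CPM, and the other types 6392 and 7054 against 8395 and 5275 CPM. Their log2 ratios of genotype means were 0.21, 0.00044 and 0.024. No test was made of these sums, and with 2 libraries against 2 the smallest two-sided exact permutation p is 0.33. Without wild type 2 the fibrillar ratio was 0.45, without knockout 2 the basement membrane ratio was -0.21 and without knockout 1 the ratio of the other types was -0.35.

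The balance of chains that assemble into 1 molecule was compared on the TPM scale. Type I collagen is mostly built from more COL1A1 than COL1A2 chains. The ratio of COL1A1 to COL1A2 was 2.80 and 3.15 in wild type, 2.60 in knockout 1 and 8.0 in knockout 2. Knockout 2 alone stood apart, with 724 TPM of COL1A1 beside 727 in knockout 1, but 90.5 TPM of COL1A2 beside 280.1. COL4A1 to COL4A2 varied from 0.523 to 0.678 and COL6A1 to COL6A2 from 0.765 to 0.882, with the genotypes overlapping in both. COL6A3 to COL6A1 was 0.436 and 0.531 in wild type against 0.700 and 0.977 in knockout, so that its genotypes did not overlap. COL5A1 to COL5A2 was 16.1 and 10.6 in wild type against 13.2 and 8.82 in knockout. COL9A2 to COL9A3 was 0.680 and 0.366 against 1.37 and 0.195, at low counts. The genotypes overlapped in both.

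**Figure D4:**
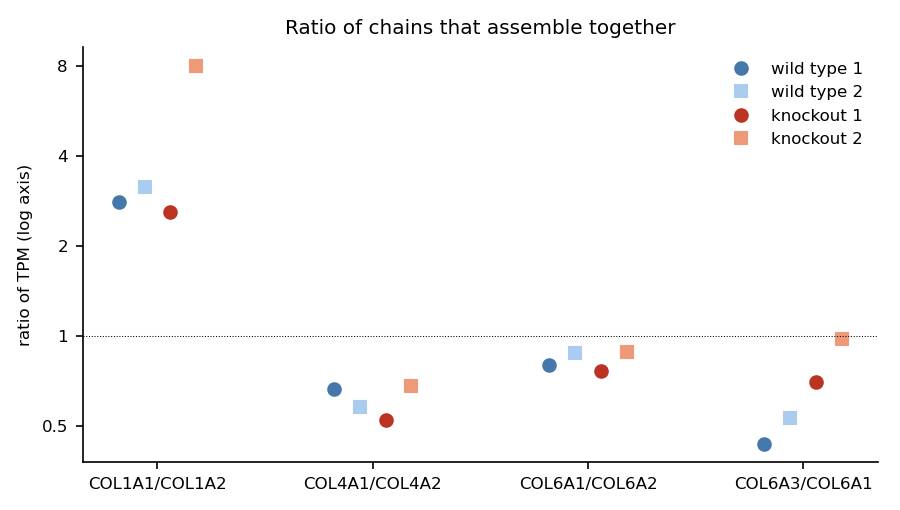
Ratio of TPM between partner chains in each library on a log axis, for 4 pairs of collagen genes with 1 point per library. COL1A1 to COL1A2 reaches 8.0 in knockout 2 against 2.60 to 3.15 in the other libraries, and the pairs of type IV and of COL6A1 with COL6A2 lie close together.

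Collagen genes varied more between libraries of 1 genotype than tested genes at large. Over the 33 tested members with counts in every library, the median ratio of the higher to the lower library was 1.53 in wild type and 1.70 in knockout, against 1.21 and 1.30 over 18145 genes. It passed 2-fold in 27.3% of collagen genes within wild type and 30.3% within knockout, against 9.56% and 14.9% of all genes. Within knockout the widest were COL6A6 (14.5-fold), COL20A1 (6.09-fold), COL3A1 (4.83-fold), COL13A1 (3.77-fold), COL1A2 (3.04-fold) and COL11A2 (3.02-fold). In all of these but COL20A1, knockout 2 was the lower library. These spreads are a description, with no test.

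At the level of transcripts, 117 of the 347 collagen transcripts passed the filter, and edgeR called none after adjustment over 56858 transcripts, of which 0% were called. Of the 117, 7 (5.98%) had an unadjusted p under 0.05 with a higher level in knockout and 5 (4.27%) with a lower one, beside 2.21% and 2.43% of all transcripts. The higher ones were COL2A1-001, COL5A1-201, COL6A1-003, COL6A3-001, COL13A1-014, COL15A1-001 and COL16A1-005. COL5A1-201 had 49.4 and 50.8 estimated counts in the wild type libraries, against 193 and 140 in knockout (log2 fold change 1.67 ± 0.37, edgeR adjusted p = 0.823), while the gene as a whole hardly differed. COL16A1-005 had 0 and 0 against 19.4 and 16.4, and COL13A1-014 had 0 and 0 against 12.8 and 15.2. The lower ones were COL4A6-001, COL6A1-002, COL11A2-001, COL12A1-002 and COL20A1-001. COL12A1-002 had 16.9 and 38.5 estimated counts in the wild type libraries, against 0.25 and 0.30 in knockout, opposite to the gene's total. COL11A2-001 had 61.8 and 87.2 against 11.8 and 16.5. As for COL2A1, the division of a gene's counts between its transcripts is a model estimate.

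Genes that make, trim and bind collagen were read from 5 lists, written with earlier results of these data known. Shares of list members past a p are therefore descriptions only. Of 23 genes that modify and fold chains, all were tested, 14 had a log2 fold change above 0 and 9 below, and none had an unadjusted p under 0.05. PLOD2, a lysyl hydroxylase, had 131 and 157 CPM in wild type and 277 and 141 CPM in knockout. CRTAP, part of the prolyl 3-hydroxylation complex, had 230 and 247 against 204 and 168 CPM, and TMEM38B, an ion channel of the endoplasmic reticulum, had 64.0 and 38.9 against 32.2 and 38.8 CPM. The list's median log2 fold change was 0.026, and 2 members (8.70%) lay above and 5 (21.7%) below wild type in both knockout libraries, beside 17.8% and 18.0% of all genes.

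Among 13 tested genes of 14 that process and crosslink collagen, 12 had a log2 fold change above 0, with a median of 0.28. Over all tested genes, 9346 of 18349 were above 0. Some of the 12 were close to 0, such as BMP1 (0.0019), PCOLCE (0.0024) and LOXL1 (0.019). In CPM, 3 members (23.1%) lay above wild type in both knockout libraries and 0 below, beside 17.8% and 18.0% of all genes. PCOLCE2, an enhancer of propeptide cleavage, had 8.24 and 11.4 CPM in wild type and 20.6 and 15.3 CPM in knockout (0.87 ± 0.30, unadjusted p = 0.0222). ADAMTS14, a propeptide-cleaving protease, had 0.384 and 0.441 against 1.94 and 0.906 CPM (1.77 ± 0.65, unadjusted p = 0.0301). Those 2 (15.4%) were the members with an unadjusted p under 0.05, both higher, beside 2.85% of all tested genes, and none passed adjustment. ADAMTS2, the best known protease of this kind, had 9.28 and 22.5 against 53.0 and 20.9 CPM, with knockout 1 far above the rest.

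Collagen receptors held more members below 0 than above. Of 11 genes, 10 were tested, 3 had a log2 fold change above 0 and 7 below, with a median of -0.19. Over all tested genes, 9346 were above 0 and 9003 below. ITGA2, the integrin subunit of the receptor for fibrillar collagen, had 211 and 219 CPM in wild type and 88.6 and 113 CPM in knockout, far apart between genotypes. Its log2 fold change was -1.09 ± 0.20 (unadjusted p = 0.00105, edgeR adjusted p = 0.565, DESeq2 adjusted p = 0.00357). ITGA1, the subunit of the receptor for type IV collagen, had 82.2 and 67.7 against 18.0 and 40.4 CPM (-1.36 ± 0.37, unadjusted p = 0.00803, edgeR adjusted p = 0.799, DESeq2 adjusted p = 0.0341). DESeq2 thus called both as lower, as it did 0.230% of all genes. At an unadjusted p under 0.05 these 2 of 10 stood beside 3.05% of all tested genes. DDR1, a receptor tyrosine kinase for collagen, had 15.05 and 33.6 against 33.6 and 39.7 CPM.

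Of 12 genes for proteins that bind fibrils, 9 were tested, 4 above and 5 below 0, and 1 (11.1%) had an unadjusted p under 0.05, beside 2.85% of all genes in that direction. That gene, TNC, a matrix glycoprotein of development and wounds, had 358 and 466 CPM in wild type and 718 and 648 CPM in knockout (0.73 ± 0.22, unadjusted p = 0.0117, edgeR adjusted p = 0.799). BGN, a small proteoglycan, had 11.1 and 20.6 against 39.6 and 16.5 CPM, and DCN, its relative, had 1.26 and 0.883 against 0.841 and 0.427 CPM. DCN and LUM, defining genes of fibroblasts, reached at most 5.13 CPM, while a list of 7 fibroblast markers summed to 2048 and 3028 CPM in wild type and 3210 and 3136 CPM in knockout. That sum is mostly COL1A1, itself a member of the family. Of the other markers on the list, THY1 had 91.9 and 139 CPM in wild type and 254 and 100 CPM in knockout. PDGFRB had 25.3 and 38.2 against 32.3 and 9.17 CPM, while PDGFRA and COL3A1 reached at most 8.04 and 8.11 CPM.

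**Figure D5:**
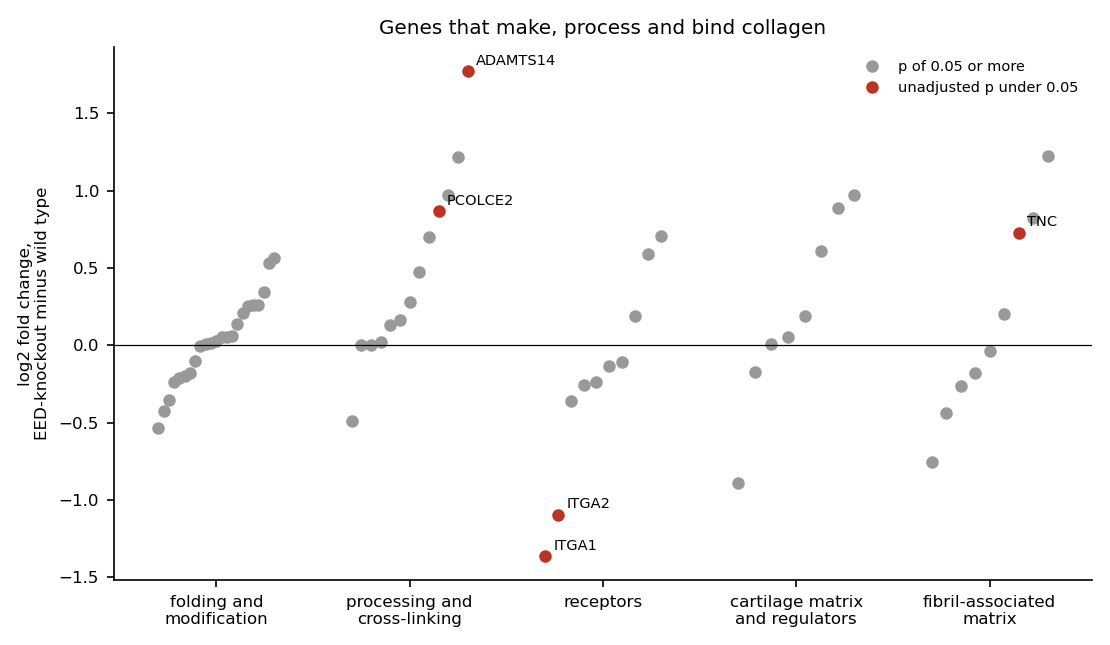
Log2 fold change, knockout over wild type, of the tested genes of 5 lists (folding and modification, processing and crosslinking, receptors, cartilage, fibril binding), 1 point per gene, red where the unadjusted edgeR p is under 0.05. The red points are ITGA2 and ITGA1 below 0 and PCOLCE2, ADAMTS14 and TNC above 0.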

How the data were processed

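The study measured RNA-seq of total RNA, with groups and numbers as the sample titles give them. The deposited estimated counts come from kallisto 0.43.1 with the build hg38, per the submitters' processing notes, and list fragments per transcript. The deposited TPM values are kallisto's abundances corrected for effective length, per the file headers. Transcript and effective lengths are given beside them, per the file headers. Run settings and annotation release were not given in the sources used here. Fragments shared by similar genes or transcripts are divided by a model, which makes values of overlapping genes uncertain.

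Both were added up over the transcripts of each gene, and the count sums were rounded. Genotypes were compared with edgeR 4.0.16 in R 4.3.3 (quasi-likelihood F test, two-sided, TMM factors, filterByExpr with minimum count 10 and minimum total 15, no covariate). Benjamini-Hochberg adjustment ran over all 18349 genes, and 0.05 was the threshold. CPM values are scaled with TMM factors. Fold changes carry 95% intervals from the edgeR fit, and intervals and floors from counts (exact Clopper-Pearson) cover counting error only. Positions are from GENCODE 29 on GRCh38 and promoters from RefSeq on GRCh38.p14. The code was tested on simulated data.

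The members, classes and lists were chosen with earlier results of these data known. Genes named by rule were COL2A1, members with a mean of at least 10 CPM, the 3 with the largest fold change in each class, members past 0.05 by edgeR (adjusted or not) or DESeq2, and the 3 with the smallest p in each list. The remaining collagen genes were named to account for every member. Alternatives were other size factors and filters, DESeq2 1.42.0, limma 3.58.1 on log2 TPM with 2 pseudocounts (1 and 0.1), length-scaled counts, coding transcripts only, replicate number as a block and leaving out each library. With 1 library removed, the single one remaining in that group was taken to vary as the other group does.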

Additional observations from a re-analysis of the deposited data

How the results depend on the processing

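EdgeR called 0 genes in either direction. DESeq2 called 36 genes higher and 45 lower, and leaving out 1 library in edgeR gave 0 to 15 higher and 0 to 10 lower: 15 and 8 without knockout 1, 9 and 10 without wild type 2. Of the collagen genes, DESeq2 called 1, COL2A1, and every other alternative called 0, with 0 to 0 when single libraries were left out. The COL2A1 log2 fold change was positive in all alternatives, from 0.98 on log2(TPM + 1) to 9.19 with coding transcripts only, and 3.66 to 4.85 when single libraries were left out. Its adjusted p was 0.116 to 1.00 in all alternatives other than DESeq2.

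Of 420 values (28 named genes under 15 alternatives), 387 kept their direction and their side of the threshold, 1 passed it (COL2A1 by DESeq2) and 32 in 13 genes changed sign. None of the 13 passed the threshold in edgeR. With length-scaled counts the log2 fold change was 0.12 for COL27A1, -0.055 for COL4A2, -0.17 for COL4A6, 0.057 for COL16A1 and 0.039 for COL7A1. With log2(TPM + 0.1) it was 0.26 for COL27A1, 0.098 for COL16A1 and 0.097 for COL7A1, and with log2(TPM + 1) it was 0.25 for COL27A1, -0.018 for COL4A6, 0.096 for COL16A1 and 0.096 for COL7A1. Upper quartile factors gave 0.015 for COL7A1. When single libraries were left out, the values ranged from -1.10 to 0.49 for COL1A2, -0.024 to 0.76 for COL5A2, -0.42 to 0.22 for COL27A1, -0.43 to 0.26 for COL4A1, -0.12 to 0.14 for COL4A2, -0.55 to 1.32 for COL4A4, -0.55 to 1.47 for COL4A6, -0.58 to 0.26 for COL16A1, -0.85 to 0.10 for COL6A1, -0.94 to 0.27 for COL6A2, -0.41 to 0.30 for COL7A1, -1.66 to 0.24 for COL13A1 and -0.14 to 2.39 for COL23A1. The cause was not tested.

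The log2 ratio of class totals ranged, with single libraries left out, from 0.014 to 0.45 for fibrillar genes (0.45 without wild type 2), from -0.21 to 0.19 for basement membrane genes (-0.21 without knockout 2) and from -0.35 to 0.32 for the other types (-0.35 without knockout 1).

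With replicate number as a block, edgeR called 0 genes and 0 transcripts, and COL2A1 had a log2 fold change of 4.27 (adjusted p = 0.460). Whether the numbers pair the libraries cannot be told: deviations of same-numbered libraries correlated over genes at -0.14, with 2 pairs only. With the numbers crossed, an alternative chosen after seeing the data, the block called 0 genes. Low counts limit the ratios of COL2A1, COL9A1 and COL26A1, for which wild type held 7, 2 and 6 counts in all.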
